A study of Mus musculus with 6 samples.

Results

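The genes that encode the proteins of the mitochondrial ribosome were followed in B16F10 mouse melanoma cells depleted of OSGEP. Members were taken by symbol, as every gene whose name begins with Mrpl or Mrps followed by a digit. This matched 84 rows, and after 6 pseudogenes were dropped 78 genes were left out of 55487 in the table. Of these, 49 carry an Mrpl name (large subunit) and 29 an Mrps name (small subunit). All 78 were expressed highly enough to be among the 12669 genes tested. The rule used no measured value, though it was set with earlier results of these data known.

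Each group comprised 3 independent infections (n = 3), with a control hairpin in shCtr and with the hairpin against OSGEP that the study numbers 2 in shOSGEP, and polyA RNA was sequenced. Both groups were B16F10 cells of wild-type genotype, grown in the same medium, and all carried a hairpin. OSGEP is the enzyme of the KEOPS complex, which modifies cytosolic tRNAs that read codons beginning with A (ANN codons) with t6A, next to the anticodon. A single hairpin was sequenced, so an effect of losing OSGEP and an effect of this hairpin cannot be told apart. The comparison asks whether transcripts of the mitochondrial translation machinery differ when OSGEP is depleted.

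The mitochondrial ribosome translates the few messenger RNAs that mitochondrial DNA encodes, all of them for subunits of the respiratory chain and ATP synthase. Its ribosomal RNAs are made in the organelle, whereas its proteins are encoded in the nucleus, translated by cytosolic ribosomes and imported. Part of these proteins have a counterpart in the bacterial ribosome and the rest arose within mitochondria. Promoters of nuclear genes for mitochondrial proteins often carry sites of the factors NRF-1 and GABP.

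The libraries held between 18915587 and 29487384 counts. Levels are in CPM, the count of a gene relative to the library total after TMM correction for RNA composition. Differences are given as Log2FC, the log2 fold change of shOSGEP over shCtr fitted by edgeR, with its standard error (SE). Osgep itself measured 20.6, 58.6 and 21.8 CPM in the shCtr and 4.28, 0.542 and 5.51 CPM in the shOSGEP libraries, in the direction of the labels (Log2FC -3.29, SE 0.876, edgeR adjusted p = 1, DESeq2 adjusted p = 0.0386, exact permutation p = 0.1). Of the 7 melanocyte markers all were expressed, with a summed level of 17029 to 29584 CPM in shCtr and 3547 to 18062 CPM in shOSGEP, the lowest in shOSGEP replicate 2. Of 5 leukocyte markers Ptprc, Cd3e and Adgre1 were at 0 in every library, and no keratinocyte marker exceeded 0.116 CPM. TMM gave shCtr replicate 2 a factor of 0.69 and the other 5 libraries factors of 1.04 to 1.14. A trend with GC content and transcript length accounted for 56.7% of its deviation from the gene means, for 47.3% and 48% in the replicate 1 libraries and for 12.2% to 16.9% in the other 3. By its TMM factor (1.07) and this trend (12.2%) shOSGEP replicate 2 did not stand apart, but it had the lowest level of Osgep and of the melanocyte markers. Values without the replicate 2 libraries are given beside the members' median and the medians of most groups of genes. In bulk RNA, fewer cells that express a gene and less RNA per cell cannot be told apart.

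Levels were first compared between members, per kilobase of transcript. The length of a gene was the median of its annotated protein-coding transcripts, and the form expressed in these cells may differ. The mean level over the 6 libraries ranged from 2.97 CPM per kilobase for Mrpl1, which forms the mobile stalk by which spent tRNA leaves the ribosome, to 284 CPM per kilobase for Mrpl20, a protein of the large subunit. Mrpl12, the stalk protein that recruits elongation factors, followed at 271 and Mrpl17 at 168. At the low end stood Mrpl47, a protein near the exit of the peptide tunnel, at 3.91 and Mrpl32, which is cut to its mature form by a protease of the inner membrane, at 7.52. By this measure, transcripts of proteins that stand in 1 ribosome together thus spanned a wide range of levels in the same cells. Mrpl1 has a length of 3431 bases and Mrpl20 of 494, and the part of length in this range was not tested. Within a library the 90th percentile of the members exceeded the 10th by 8.47 to 12.8 times. The median per kilobase was higher for the Mrpl than for the Mrps genes in every library, by a ratio of 1.29 to 1.53. The ranges of the highest genes overlapped: over the libraries Mrpl20 ran from 112 to 726 CPM per kilobase and Mrpl12 from 90.9 to 822. Both highest values stood in shCtr replicate 2. In CPM, without division by length, the highest of all 78 genes was Mrpl12 in 4 libraries and Mrpl51 in 2.

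**Figure D1:**
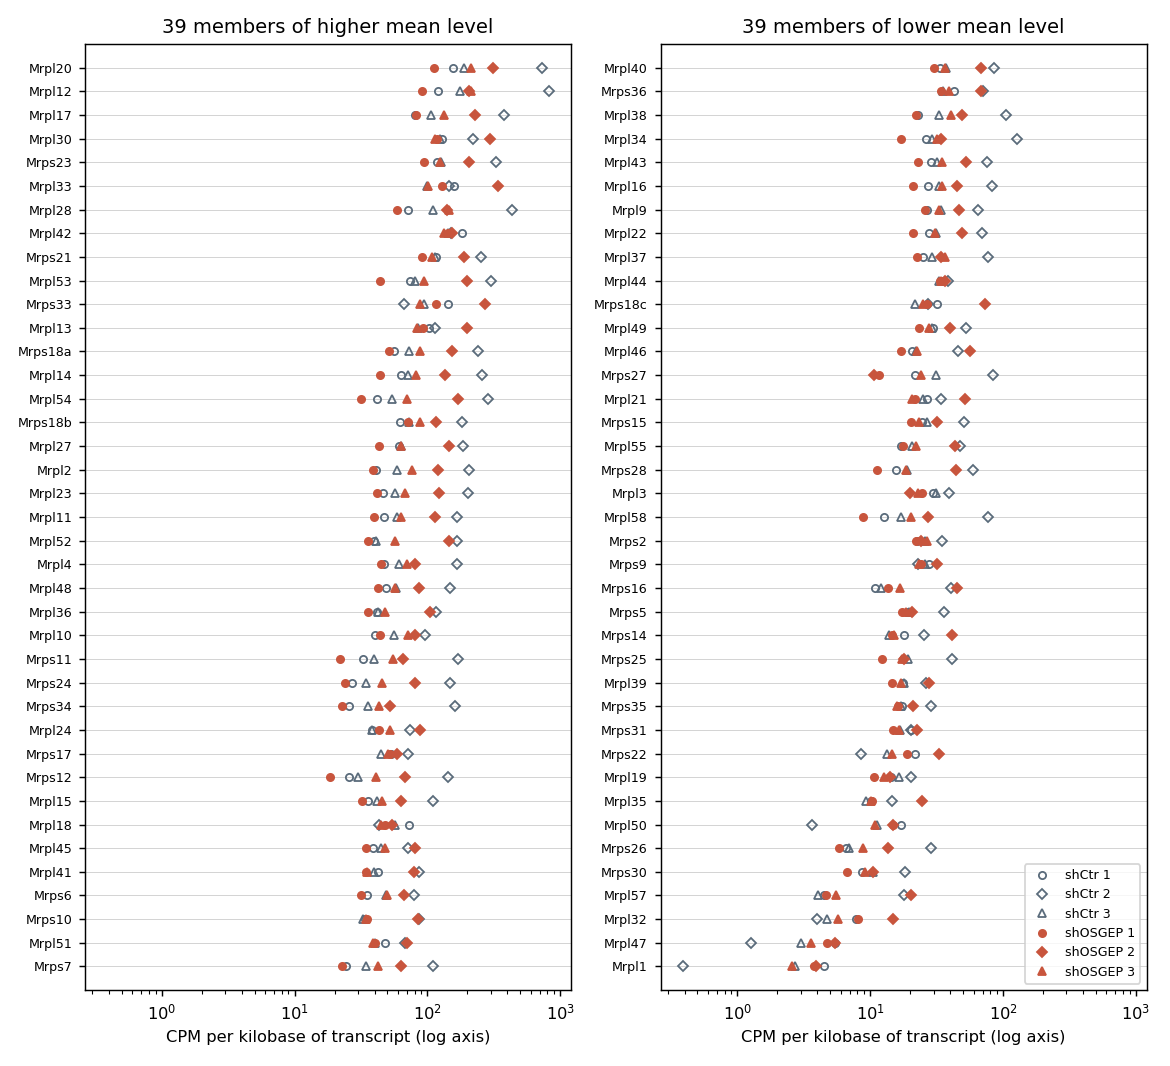
Level of each of the 78 members in each of the 6 libraries, in CPM per kilobase of transcript on a log axis, ordered by mean level and divided into 39 higher and 39 lower genes. Open symbols are shCtr, filled symbols shOSGEP, and circles, diamonds and triangles are replicates 1, 2 and 3. Diamonds lie to the right of the other symbols for most genes, and the open diamond lies far to the left for Mrpl1, Mrpl50 and Mrpl47.

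The amount of mitoribosomal protein transcript per library was then examined. Summed over the 78 members it was 3555, 9486 and 3782 CPM in the shCtr libraries, in order of replicate number, and 3010, 6395 and 4053 CPM in the shOSGEP libraries. Replicate 2 was highest in both groups, and the groups overlapped. As a share of all counts, without TMM scaling, the members took 0.39%, 0.655% and 0.394% in shCtr and 0.342%, 0.683% and 0.423% in shOSGEP. On this scale the order of the replicate 2 libraries was inverted. The median member in shCtr replicate 2 stood at 2.3 times its mean in the other shCtr libraries, where the median of all genes tested stood at 0.98 times. In shOSGEP replicate 2 it stood at 1.86 times, and all genes at 0.981 times.

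**Figure D2:**
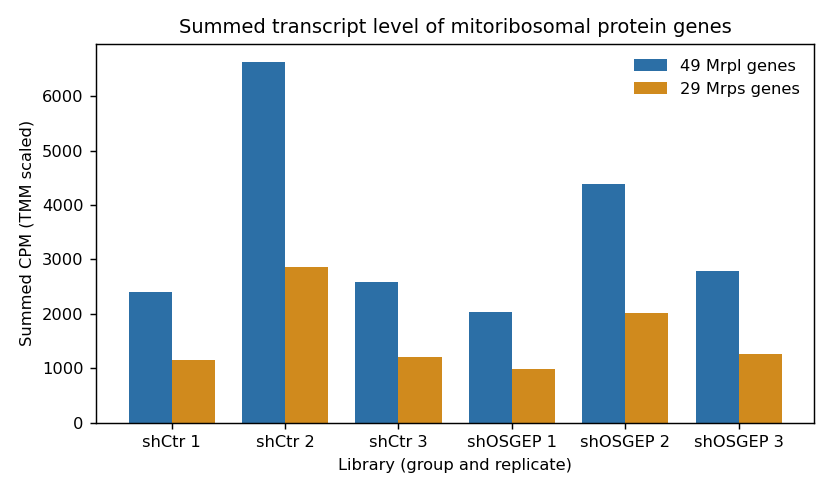
Summed CPM of the 49 Mrpl genes and of the 29 Mrps genes in each of the 6 libraries. Both bars are tallest in shCtr replicate 2 (6628 and 2859 CPM), next in shOSGEP replicate 2 (4385 and 2010 CPM), and the other 4 libraries lie close together.

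The higher level in replicate 2 was not shared by every member. Mrpl12 measured 1081 CPM in shCtr replicate 2, which was 5.56 times the mean of the other shCtr libraries (159 and 230 CPM). Mrps34, a small subunit protein mutated in human mitochondrial disease, had a ratio of 5.19, and Mrps12, which lies at the decoding site, one of 5.17. In contrast Mrpl1 had 1.33 CPM (27 counts) in that library and 15.5 and 9.36 CPM in the others. Mrpl50, named after its values were seen, had 7.76 CPM there and 36.1 and 23.9 CPM in the others, and Mrpl47 had 4.23 CPM there and 18.3 and 10.1 CPM in the others. Mrps22 and Mrps33 also lay lower there, with ratios of 0.485 and 0.559. In shOSGEP replicate 2 these members did not lie low: Mrpl1 had a ratio of 1.22 to the other shOSGEP libraries, Mrpl47 of 1.3, Mrps22 of 1.94 and Mrps33 of 2.66. The replicate 2 libraries of the groups thus differed in which members were high.

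For shOSGEP against shCtr, the quasi-likelihood test of edgeR, adjusted over all genes tested by Benjamini-Hochberg, called no member at an adjusted p under 0.05, nor any other gene (0% of genes). The adjusted p of every member was 1. DESeq2 called 14 genes (0.111%), none of them a member, and limma-voom with sample quality weights called no member either. At an unadjusted p under 0.05, edgeR gave 1 member, Mrps27, as did both other tools, where 2.02% of all genes passed and 0.426% passed and were lower. Of the 78 members 57 had a Log2FC below 0 and 21 above, against 52.7% of all genes below 0. Their median Log2FC was -0.27 (all genes -0.03), and single values ran from -1.55 for Mrps27 to 0.79 for Mrpl32.

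This median depended on single libraries, most of all on those of replicate 2. Without shCtr replicate 2 it was 0.34, with 64 members above 0, and without shOSGEP replicate 2 it was -0.58, with 6 above 0. Without both, the median was -0.06, with 29 members above 0 and 49 below. The members' median thus turned positive when shCtr replicate 2 alone was left out, and stayed below 0 when both replicate 2 libraries were. Other libraries moved it too. Without shOSGEP replicate 1 it was -0.06, with 45 members below 0, and without shOSGEP replicate 3 it was -0.19. Without shCtr replicate 1 it was -0.48 and without shCtr replicate 3 it was -0.42.

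Comparison of same-numbered libraries gave 3 separate readings. The median log2 ratio of shOSGEP over shCtr was -0.23 for replicate 1, -0.43 for replicate 2 and 0.10 for replicate 3, while the medians of all genes tested were -0.03, 0.11 and -0.01. In these pairs 10, 24 and 49 of the 78 members were higher in shOSGEP. Most members were thus lower in shOSGEP of replicate 1 and higher in shOSGEP of replicate 3. Of the 78, 17 were lower in shOSGEP in all 3 pairs (17.2% of all genes were) and 5 were higher in all 3 (17.6% of all genes). The 5 were Mrpl24, Mrpl32, Mrpl35, Mrpl57 and Mrps16, named here after their values were seen.

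**Figure D3:**
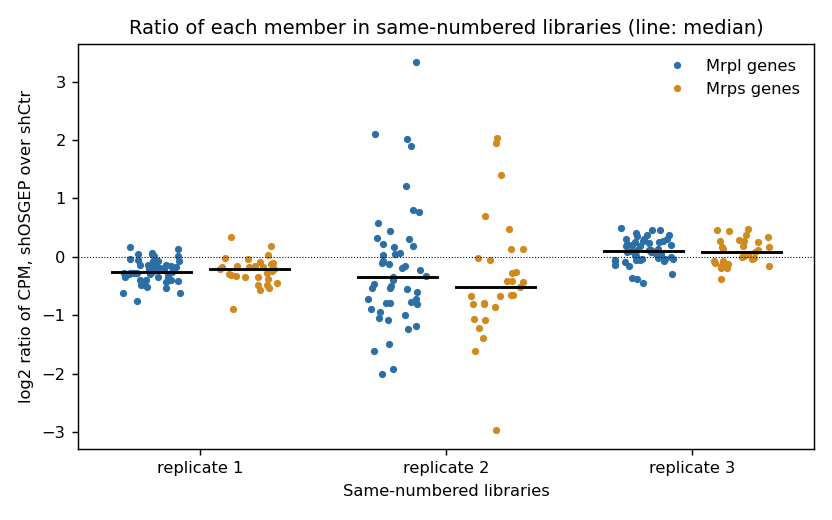
Log2 ratio of CPM in shOSGEP over shCtr for each Mrpl and Mrps gene, in the libraries of replicate number 1, 2 and 3, with a line at each median. Replicates 1 and 3 form narrow clouds with medians of -0.23 and 0.10 over all 78 members, and replicate 2 spreads from -2.97 for Mrps27 to above 3.

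Groups that did not overlap were found for 2 members, both lower in shOSGEP (2.88% of all genes did so), and for no member in the higher direction (3.49% of all genes). The first was Mrpl3 (ENSMUSG00000032563), a protein with a bacterial counterpart that reaches towards the site where peptide bonds are made, encoded on the plus strand of chromosome 9 from 105053239 to 105079888 (GRCm38). The shCtr libraries held 68, 90.7 and 72 CPM of it, and the shOSGEP libraries 56.2, 45.7 and 52.6 CPM. Every shOSGEP library lay below every shCtr library. The means were 76.9 ± 12.1 CPM and 51.5 ± 5.32 CPM (SD, n = 3 each), and the Log2FC was -0.58 (SE 0.374). The exact two-sided permutation p was 0.1, the smallest that 3 libraries against 3 can give, and the unadjusted p of edgeR was 0.16. Over all alternative fits its Log2FC stayed between -0.92 and -0.36.

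The second was Mrpl19 (ENSMUSG00000030045), a large subunit protein at the interface between subunits, found at 81957851 to 81965958 of chromosome 6 (minus strand). Its level was 71.8, 102 and 82.4 CPM in the shCtr and 53, 70.5 and 63.4 CPM in the shOSGEP libraries. Again no library of the groups overlapped, though shCtr replicate 1 and shOSGEP replicate 2 nearly met. The Log2FC was -0.45 (SE 0.379, edgeR p = 0.263, exact permutation p = 0.1) and ran from -0.95 to -0.31 over the alternatives. Of its sequence, 35.8% of the words of 31 bases also occur in the overlapping gene Gcfc2, so part of its reads could be divided differently between these genes.

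Mrps27 (ENSMUSG00000041632), a small subunit protein with pentatricopeptide repeats that arose within mitochondria, gave the lowest Log2FC and the only unadjusted p under 0.05. The gene lies on the plus strand of chromosome 13, from 99344786 to 99415562. In order of replicate number, shCtr had 29.6, 114 and 42.8 CPM and shOSGEP 15.9, 14.6 and 32.9 CPM. It was lower in shOSGEP in each same-numbered pair, with log2 ratios of -0.89, -2.97 and -0.38, but shOSGEP replicate 3 lay above shCtr replicate 1, so the groups overlapped. The means were 62.1 ± 45.4 and 21.1 ± 10.2 CPM (SD, n = 3 each), the Log2FC was -1.55 (SE 0.624, edgeR p = 0.0365, adjusted p = 1) and the exact permutation p was 0.2. With the replicate number as a block the Log2FC was -1.38 and the unadjusted threshold was missed. The same held with the block and offsets for GC content and length (-1.43), given below. The threshold was missed too without shCtr replicate 2 (-0.77), without shOSGEP replicate 2 (-1.31), without shOSGEP replicate 1 (-1.38) and without both replicate 2 libraries (-0.56). The gene overlaps 6430562O15Rik, which holds 18.9% of its words of 31 bases.

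**Figure D4:**
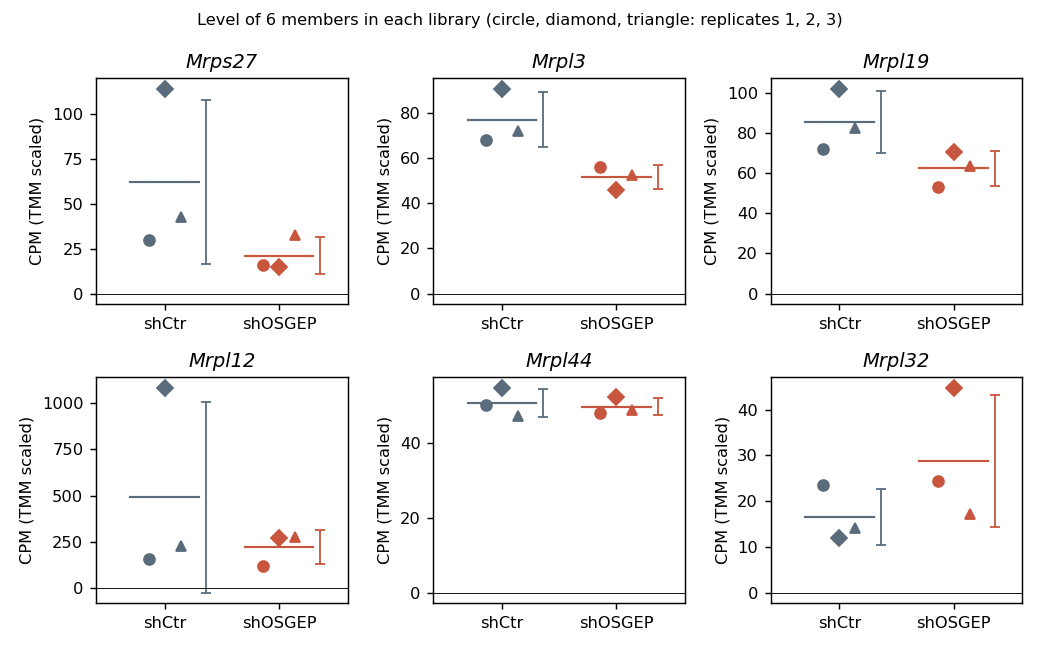
Level of 6 members in each library, in CPM from 0, with circles, diamonds and triangles for replicates 1, 2 and 3, a line at each mean and a bar of ± 1 SD (n = 3). Groups are separate for Mrpl3 and Mrpl19, overlap for Mrps27, Mrpl12 and Mrpl32, where a diamond stands apart, and nearly coincide for Mrpl44.

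Among the proteins of the large subunit, the factor-binding stalk is built from Mrpl10, which anchors it, Mrpl11 at its base and Mrpl12. Mrpl12, given above for shCtr, had 120, 271 and 279 CPM in shOSGEP, and its Log2FC was -1.13 (SE 0.762). The difference lay in shCtr replicate 2, and over the alternatives it ran from -1.68 to 0.20. Mrpl11 had a Log2FC of -0.34 (SE 0.623) and Mrpl10 of 0.04 (SE 0.471). The 3 stalk proteins, which stand in a fixed ratio in the ribosome, thus had transcript differences of unlike size, none of which passed the test. Mrpl1 of the opposite stalk had a Log2FC of 0.42 (SE 0.77).

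Mrpl44, which has the fold of a double-stranded RNA nuclease, was among the steadiest members. Its shCtr libraries held 50.2, 54.8 and 47.2 CPM and its shOSGEP libraries 48, 52.4 and 48.8 CPM, a Log2FC of -0.03 (SE 0.364). All 6 libraries lay within this narrow band, the replicate 2 libraries included. Mrpl45, which ties the ribosome to the inner membrane, had a Log2FC of 0.07 (SE 0.472). Mrpl16, close to the catalytic centre, had one of -0.52 (SE 0.553). Mrpl58, a peptidyl-tRNA hydrolase that releases stalled chains and is also built into the large subunit, had one of -0.92 (SE 0.756), and its levels of 32, 194 and 43.3 CPM in shCtr put the difference again in replicate 2.

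Next to Mrps27, Mrpl3 and Mrpl12, the lower members with the smallest unadjusted p in edgeR were Mrpl34 (Log2FC -1.15, SE 0.692) and Mrps25 (-0.72, SE 0.462). Mrps25 had 108, 251 and 117 CPM in shCtr, 75, 109 and 105 CPM in shOSGEP, and shCtr replicate 1 lay just below shOSGEP replicate 2. It was lower in all 3 pairs, by log2 ratios of -0.53, -1.21 and -0.16. Of its words of 31 bases 68.9% also occur in the overlapping gene Nr2c2, and its reads are uncertain to that extent. The higher members by the same measure were Mrpl32 (0.79, SE 0.52), Mrps33 (0.65, SE 0.544), Mrps18c (0.62, SE 0.537), Mrps22 (0.61, SE 0.525) and Mrpl33 (0.49, SE 0.541). For these 5 the highest library was shOSGEP replicate 2. Mrpl32 had 23.6, 12 and 14.2 CPM in shCtr, 24.3, 44.8 and 17.1 CPM in shOSGEP, and without both replicate 2 libraries its Log2FC was 0.13.

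In the small subunit, Mrps12 at the decoding centre, the classic site of streptomycin resistance in its bacterial relative, held 18.6, 104 and 21.8 CPM in the shCtr and 13.3, 49.2 and 29.5 CPM in the shOSGEP libraries (Log2FC -0.65, SE 0.773). Mrps5, which lines the entry of the messenger RNA, was lower in all 3 pairs (Log2FC -0.40, SE 0.421). Mrps2, Mrps7 and Mrps28, which also have bacterial counterparts, had Log2FC of -0.19, -0.40 and -0.33, and Mrps34, specific to mitochondria, one of -0.90 (SE 0.73). Mrps34 shares 73.8% of its words of 31 bases with other genes, 56.8% with Mapk8ip3 alone. More than 10% of the words were shared in 29 of the 78 members, up to 84.4% in Mrpl53. Mammals have 3 relatives of bacterial S18, and only 2 sit in the small subunit. Mrps18c, in the bacterial position, had a Log2FC of 0.62, Mrps18b, also in the small subunit, of -0.21, and Mrps18a, which sits in the large subunit, of -0.34, so the relatives differed in sign, with SEs of 0.511 to 0.664. Mrps30, a large subunit protein in spite of its name, had one of -0.51 (SE 0.452). Mrps36, now known as a subunit of the oxoglutarate dehydrogenase complex and not of the ribosome, had one of -0.07 (SE 0.476).

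The large and the small subunit were compared next. The Mrpl genes had a median Log2FC of -0.24, with 35 of 49 below 0, and the Mrps genes of -0.30, with 22 of 29 below 0. When members were assigned by the subunit in which the protein sits, with Mrps18a and Mrps30 in the large subunit and Mrps36 in neither, the medians were -0.29 (51 genes) and -0.27 (26 genes), so the order was inverted. Without shCtr replicate 2 the medians by symbol were 0.34 (Mrpl) and 0.33 (Mrps), without shOSGEP replicate 2 they were -0.62 and -0.52, and without both -0.07 and -0.06. The difference between the same-numbered medians of the Mrpl and Mrps genes had an SD of 0.106 over the 3 pairs. The difference between their median Log2FC by symbol was 0.06. This SD describes CPM ratios of single pairs and is not the error of the difference in Log2FC, which was not tested. The summed level of the Mrpl genes was 2.09, 2.32 and 2.15 times that of the Mrps genes in shCtr and 2.06, 2.18 and 2.2 times in shOSGEP. The ratio was highest in shCtr replicate 2, where the total was highest too, and the groups overlapped. Both subunits had their highest sum in the same library of each group. The 46 members with a bacterial counterpart had a median of -0.30 and the 31 of mitochondrial origin one of -0.25. These too turned sign without shCtr replicate 2 (0.38 and 0.29), and without shOSGEP replicate 2 they were -0.53 and -0.63.

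GC content moved with these differences. Across the 78 members the Log2FC correlated with the GC content of the transcript with Pearson r = -0.577 and Spearman rho = -0.556, and the ratio of shCtr replicate 2 to the other shCtr libraries did so with r = 0.693 and rho = 0.707. For shOSGEP replicate 2 the r was 0.0948. These are correlations across genes that share the same libraries, and the first 2 share shCtr replicate 2. Over all 12658 genes with a value the r of Log2FC and GC content was -0.34. With transcript length the members' Log2FC had an r of 0.0911. The 26 members of lowest GC content (41.4 to 48.8%) had a median Log2FC of 0.11, the next 26 of -0.29 and the 26 of highest GC content (52.7 to 60.6%) of -0.43, with 24 of 26 below 0. All genes tested in the same GC ranges had medians of 0.17, -0.05 and -0.31. Without both replicate 2 libraries the members' medians were -0.13, -0.08 and 0.09. With offsets for GC content and length in the edgeR fit they were -0.38, -0.25 and -0.06, and the median of all 78 was -0.20 (all genes -0.06). With these offsets, all genes tested in the same GC ranges had medians of -0.04, -0.07 and -0.08. In that fit 4.57% of all genes and 2 members, Mrps27 (Log2FC -1.52) and Mrpl3 (-0.92), passed an unadjusted p under 0.05. The part of GC content in the group difference was not tested beyond these values.

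**Figure D5:**
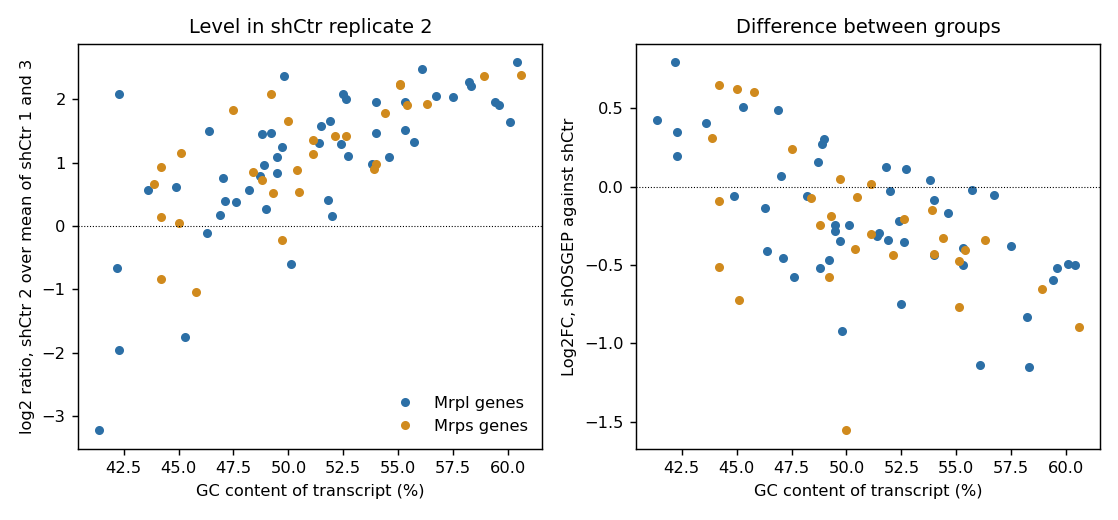
GC content of each member's transcript (%) against the log2 ratio of shCtr replicate 2 to the mean of shCtr replicates 1 and 3 (left) and against Log2FC for shOSGEP against shCtr (right), for Mrpl and Mrps genes. Members rich in GC lie high on the left (r = 0.693) and low on the right (r = -0.577).

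Nuclear genes of cytosolic ribosomal proteins and of respiratory chain subunits showed a like pattern over libraries. The median length was 1052 bases for the members, 713 and 670 for these other groups, and 2078 for all genes tested. The part of length in the pattern was not tested. The 86 cytosolic ribosomal protein genes tested stood, by their median, at 2.64 times the other libraries of the group in shCtr replicate 2 and at 2.08 times in shOSGEP replicate 2, and the 80 nuclear genes of respiratory chain subunits at 2.43 and 2.08 times. Their median Log2FC were -0.29 and -0.22, beside -0.27 for the mitoribosomal genes. Without shCtr replicate 2 they were 0.37 and 0.40, without shOSGEP replicate 2 -0.67 and -0.61, and without both -0.07 and -0.05. Their sign too turned when shCtr replicate 2 alone was left out, and was kept when both were. In same-numbered pairs the cytosolic ribosomal proteins had medians of -0.30, -0.51 and 0.10 and the respiratory chain genes of -0.25, -0.43 and 0.13. No test of a difference between the 3 groups of genes was made.

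Because t6A serves the decoding of ANN codons, the share of such codons in each coding sequence was counted. The median was 27.6% for the members and 26.9% for the 11509 genes tested with a complete coding sequence. It ranged from 18.7% in Mrpl38 to 35.6% in Mrps21. The first 30 codons of both are shown to make this range visible, with ANN codons in capitals (transcripts of GENCODE M21), of which Mrps21 has 12 and Mrpl38 has 7.
Mrps21: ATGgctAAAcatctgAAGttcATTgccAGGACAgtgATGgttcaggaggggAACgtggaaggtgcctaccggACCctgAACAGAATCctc
Mrpl38: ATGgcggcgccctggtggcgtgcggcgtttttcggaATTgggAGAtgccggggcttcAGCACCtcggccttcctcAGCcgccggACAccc

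Mrps21 had a Log2FC of -0.30 and Mrpl38 of -0.52. Across the 78 members the share of ANN codons correlated with Log2FC with r = 0.315 and rho = 0.264, and with GC content of the transcript with r = -0.458. Members with bacterial counterparts had a median of 28.2% and those of mitochondrial origin 25.3%. RNA levels do not measure decoding, and translation was not examined here.

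The windows around the start of the members were searched for motifs of factors known to act on mitochondrial genes. RefSeq windows (GRCm38.p6, 250 bases before to 50 after the start) were found by symbol for 69 of the 78 members, in 75 windows. Motifs were searched on both strands. CCGGAAG, the core bound by ETS factors such as GABP, was in 34.7% of the members' windows, against 8.9% of all 32851 windows and 18.1% of windows of genes tested here. GCGCANGCG, bound by NRF-1, was in 21.3% (6.2% of all windows, 13.5% of those of tested genes), and AAGATGGC, bound by YY1, in 16% (2.7% and 4.5%). The ETS core ends with the letters AAG that open the YY1 motif, so 1 stretch can match both, but no member had such a shared site. Of the 69 genes 44 held at least 1 of these 3 motifs, 10 held 2 at separate sites and none held all. CACGTG, the E-box, was in 9.3% (7.2% and 10.1%), GGGCGG, the GC box, in 52.0% (35.7% and 63.0%), TATAAA in 6.7% (13.6% and 6.9%) and TGATGCAA, bound by ATF4 with C/EBP factors, in none (0.9% and 0.6%). A match describes these letters and is not a measured binding site.

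Stretches of 60 bases upstream of the RefSeq start are shown for 5 members described above, each on the strand of its gene, with the motif in capitals. For Mrps27 and Mrpl3 this is the ETS core and for Mrpl12, Mrpl44 and Mrpl17 the NRF-1 motif, which Mrpl17 holds in 2 copies. They lie at chr13:99344711-99344770, chr9:105053208-105053267, chr11:120484531-120484590, chr1:79775957-79776016 and chr7:105811088-105811147 in this order, the last on the minus strand. The RefSeq start lies inside the GENCODE gene for Mrpl3 by 29 bases, for Mrpl12 by 24 and for Mrpl17 by 12, so the last 29 bases shown for Mrpl3 with its ETS core, and the last 12 for Mrpl17 with its second copy, are within the GENCODE gene.
Mrps27: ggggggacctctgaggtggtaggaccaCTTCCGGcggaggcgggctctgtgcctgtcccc
Mrpl3: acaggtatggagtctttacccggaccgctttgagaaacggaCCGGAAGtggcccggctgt
Mrpl12: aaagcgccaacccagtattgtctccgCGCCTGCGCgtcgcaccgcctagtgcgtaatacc
Mrpl44: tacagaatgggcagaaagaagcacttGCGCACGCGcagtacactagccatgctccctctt
Mrpl17: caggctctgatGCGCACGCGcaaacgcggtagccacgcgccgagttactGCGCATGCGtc

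The steady Mrpl44 and the variable Mrpl12 and Mrpl17 thus share the NRF-1 letters. Members with the ETS core had a median Log2FC of -0.31 and those without it of -0.15, members with the NRF-1 motif of -0.13 against -0.24, and members with the YY1 motif of -0.37 against -0.19. These are descriptions of overlapping sets of genes in the same libraries, without a test. They were not computed without the replicate 2 libraries, on which the median of all members depended most.

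Many members begin close to the start of another gene on the opposite strand. A protein-coding start on the opposite strand within 1000 bases was present for 33 of the 78 members (42.3%), against 17.6% of the 11576 protein-coding genes tested. Mrpl46 and Mrps11, of different subunits, overlap at their starts, which lie 412 bases apart, and had Log2FC of 0.12 and -0.77. Of their words of 31 bases, 10.5% in Mrpl46 and 6.68% in Mrps11 also occur in the other gene. Mrps12 and Sars2, the mitochondrial seryl-tRNA synthetase, begin 172 bases apart and had Log2FC of -0.65 and -0.75. Mrps27 and Ptcd2, another pentatricopeptide repeat protein of mitochondria, begin 81 bases apart and had Log2FC of -1.55 and -0.16. Neighbours thus lay close together in some cases and apart in others, and none of these genes passed an adjusted p under 0.05.

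Other genes of mitochondrial gene expression were read from lists fixed beside the members, and none of their genes passed an adjusted p under 0.05 in edgeR. Of 5 mitoribosomal proteins with other names 3 were lower and 2 higher (median Log2FC -0.23, 0.28 without shCtr replicate 2 and -0.43 without shOSGEP replicate 2). Among them, Gadd45gip1, a large subunit protein at the tunnel exit, had a Log2FC of -1.26 (SE 0.822), with 171 CPM in shCtr replicate 2 and 15 to 42.3 CPM in the other 5 libraries, and Dap3, a GTP-binding protein of the small subunit, had one of -0.35. Of 14 translation factors 10 were lower and 4 higher (median -0.11, -0.01 without shCtr replicate 2 and -0.17 without shOSGEP replicate 2). Tufm, the mitochondrial elongation factor Tu, had a Log2FC of -0.71 (SE 0.55). Pdf, which removes the formyl group from new chains, had 6.07, 5.99 and 5.39 CPM in shCtr, and 4.79, 3.48 and 3.69 CPM in shOSGEP. Its groups did not overlap (Log2FC -0.55, SE 0.462, exact permutation p = 0.1).

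Of 27 assembly factors and ribosomal RNA modifiers 17 were lower and 10 higher (median -0.23). Without shCtr replicate 2 the order was 8 lower and 19 higher (0.15), and without shOSGEP replicate 2 it was 21 lower and 6 higher (-0.41). Noa1, a GTPase of small subunit assembly, had a Log2FC of -0.79 (SE 0.482) and Tfb1m, which methylates the small ribosomal RNA, of 0.80 (SE 0.569). Of 13 genes of mitochondrial transcription and RNA processing 10 were lower and 3 higher (median -0.10, -0.25 without shCtr replicate 2 and 0.09 without shOSGEP replicate 2), with Polg, the mitochondrial DNA polymerase, at -0.68 (SE 0.45) and Slirp, an RNA-binding partner of Lrpprc, at 0.84 (SE 0.602). Of 9 transcription factors tied to mitochondrial genes 7 were lower and 2 higher (median -0.07, -0.38 without shCtr replicate 2 and 0.11 without shOSGEP replicate 2). Nrf1, the factor that binds the NRF-1 motif, had 50, 98.3 and 58.8 CPM in shCtr, and 38, 39.8 and 45.3 CPM in shOSGEP. These groups did not overlap (Log2FC -0.75, SE 0.421, exact permutation p = 0.1). The coactivator Ppargc1b had a Log2FC of -0.52 (SE 0.634). Among the t6A enzymes, Osgepl1, the mitochondrial relative of Osgep, had a Log2FC of 0.62 (SE 0.717), and Yrdc, which makes the precursor for both, of -0.40 (0.17 without shCtr replicate 2).

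In the fit of all libraries, the ribosomal RNAs made inside mitochondria lay in the other direction from most of the proteins. The small ribosomal RNA mt-Rnr1 had 246, 183 and 126 CPM in shCtr, and 274, 571 and 155 CPM in shOSGEP (Log2FC 0.85, SE 0.556). The large ribosomal RNA mt-Rnr2 had 693, 202 and 240 CPM in shCtr, and 1018, 443 and 420 CPM in shOSGEP (Log2FC 0.73, SE 0.625). Both were higher in shOSGEP in all 3 pairs, while their groups overlapped, and their median Log2FC of 0.79 became 0.01 with offsets for GC content and length. Without shCtr replicate 2 it was 0.63 and without shOSGEP replicate 2 it was 0.58. The median of the 78 members was 0.34 and -0.58 in these fits, so the directions were opposite only in the latter. In the pair of replicate 3 most members were higher in shOSGEP too. In polyA-selected libraries the values of the ribosomal RNAs show only the part that was carried through selection.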

How the data were processed

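B16F10 cells of 3 infections per group were compared. Per the labels and methods, polyA libraries were made from 500 ng of total RNA and read in pairs of 100 bases. The authors aligned reads to GRCm38 with STAR 2.6.1d and quantified genes with Salmon 1.4.0. The deposited values are estimated counts per gene written as whole numbers, without normalization. The annotation release is not given in the sources used here, and overlapping genes share uncertain reads.

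Genes passing filterByExpr (minimum count 10, minimum total 15) were scaled by TMM and tested with edgeR 4.0.16 (R 4.3.3), two-sided, without a block, with Benjamini-Hochberg adjustment over 12669 genes. DESeq2 1.42.0 and limma 3.58.1 served as alternatives. Single members were compared by an exact permutation test of log2(CPM + 0.5). For ratios of lists 0.01 CPM was added. Positions, lengths, GC contents and coding sequences came from GENCODE M21. Offsets were splines of GC content and length (5 degrees of freedom each, prior count 2).

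The members and lists were chosen with earlier results of these data known. Named genes were Osgep, 22 members by role, the 5 members of smallest p per direction, the 3 of highest and lowest level per kilobase, members without overlap, and the 2 genes of smallest p per other list. Depth of 18915587 to 29487384 counts sets a floor of 3 counts at 0.116 to 0.147 CPM, which covers counting error only. Deviations from group means correlated between same-numbered libraries at 0.811, 0.557 and 0.196, each above 0.1 (differently numbered libraries: -0.784 to 0.491). Same-numbered libraries were therefore also compared as pairs, and fits with the replicate number as a block were run. The main edgeR fit, with its SE and p, and the exact permutation test did not use this pairing.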

Additional observations from a re-analysis of the deposited data

How the results depend on the processing

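No member passed an adjusted p under 0.05 in any of the alternatives run. Over all genes 14 were called by DESeq2 and 3 by limma-voom with quality weights. With the replicate block the members' median Log2FC was -0.19 with 55 members below 0, that of the Mrpl genes was -0.18 and that of the Mrps genes -0.20, and the 1 member at an unadjusted p under 0.05 was lost, leaving 0. With the block and offsets for GC content and length the median was -0.18. The weights of limma-voom gave medians of 0.01 for the members, 0.01 for the Mrpl and 0.05 for the Mrps genes, with 35 members below 0. Leaving out libraries moved the members below 0 from 14 to 72, their median from -0.58 to 0.34, that of the Mrpl genes from -0.62 to 0.34, that of the Mrps genes from -0.52 to 0.33 and the large minus small difference from -0.10 to 0.09. The low number of 14 below 0 and the positive medians came without shCtr replicate 2, and the lowest medians without shOSGEP replicate 2. The biological coefficient of variation was 0.566 (0.385 with the block). The lowest value of a member was 27 counts, above the floor of 3 counts.

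Of 829 Log2FC of 46 named genes under alternatives, 757 kept their direction and their side of the threshold and 70 changed sign, in 29 genes. With the weights of limma-voom the sign changed for Mrpl44 (0.03), Mrps7 (0.09), Mrps12 (0.12), Mrps18a (0.12), Mrps18b (0.21), Mrps34 (0.02), Mrps36 (0.11) and Mrpl17 (0.18). With upper-quartile scaling it changed for Mrpl44 (0.09) and Mrps36 (0.07), and with at least 10 counts in every library for Mrpl44 (0.02). With offsets it changed for Mrpl44 (0.01), Mrpl45 (-0.32), Mrps18a (0.06) and mt-Rnr2 (-0.04), and with offsets and block for Mrpl44 (0.01), Mrpl45 (-0.23), Mrps18a (0.05) and Mrps18b (0.01). The cause was not tested.

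When 1 library or both libraries of a replicate number were left out, the Log2FC ran from -0.19 to 1.13 for Mrpl1, -0.20 to 0.45 for Mrpl10, -0.81 to 0.44 for Mrpl11, -1.68 to 0.20 for Mrpl12, -0.79 to 0.15 for Mrpl16, -0.77 to 0.65 for Mrpl17, -1.11 to 0.30 for Mrpl20, -0.22 to 0.85 for Mrpl33, -0.07 to 0.03 for Mrpl44, -0.31 to 0.37 for Mrpl45, -0.01 to 1.11 for Mrpl47 and -1.32 to 0.34 for Mrpl58. It ran from -0.31 to 0.01 for Mrps2, -0.76 to 0.54 for Mrps7, -1.13 to 0.60 for Mrps12, -0.79 to 0.60 for Mrps18a, -0.47 to 0.43 for Mrps18b, -0.05 to 1.00 for Mrps18c, -0.06 to 1.12 for Mrps22, -1.03 to 0.53 for Mrps28, -0.22 to 1.16 for Mrps33, -1.31 to 0.37 for Mrps34 and -0.41 to 0.27 for Mrps36. For genes outside the family it ran from -1.77 to 0.28 for Gadd45gip1, -0.60 to 0.12 for Dap3, -1.21 to 0.11 for Tufm, -0.02 to 1.13 for Tfb1m and -0.02 to 1.54 for Slirp.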
